A study of Mus musculus with 8 samples.

Results

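Gene-desert CHD4 sites are places in the mouse genome far from any protein-coding gene at which CHD4 was found by ChIP-seq in control atria. They were chosen by rule. The deposited peak lists of 4 ChIP libraries were merged where peaks overlapped by at least 1 bp, which gave 121267 sites. A site was taken when it lay on an autosome, was called in both control lists, lay 50 kb or more outside every protein-coding gene body of build mm10, and had no control peak of 5000 bp or more. Of the 65930 autosomal sites in both control lists that met the limit on length, 7114 (10.8%) met the distance rule as well. The rule used the control calls and the position of each site, so both are descriptions here. A call in a TBX5 KO list was neither required nor excluded by the rule. Peaks of those lists did enter the merging, and so the extent of a site and its distance from genes.

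The libraries came from whole right and left atria of mice with floxed Tbx5 alleles. An AAV9 vector was given on postnatal day 2, and in it the atrial Nppa promoter sequence drove either Cre recombinase (AAV9:Nppa-Cre) or EGFP (AAV9:Nppa-EGFP). By their titles 2 ChIP libraries are control and 2 are TBX5 KO, and all groups carry the floxed alleles and an AAV9 vector. The labels for genotype and treatment contradict these titles, with control and TBX5 KO exchanged, and the treatment text names CHD4 as the gene deleted. Each direction below rests on the titles. The cell type is labelled as mixed, and the Cre would be made only where the Nppa sequence is active. Age at collection is not given in the sources used here. Peak lists hold no expression values, so neither the tissue label nor the loss of Tbx5 could be checked against marker genes. The labels do not say whether replicates are separate animals, so the spread between libraries may be technical. Fewer cells of a type with CHD4 at a site, and less CHD4 at the site in each cell, cannot be told apart.

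CHD4 is the ATP-dependent chromatin remodeller of the NuRD complex, which joins nucleosome movement and histone deacetylation and works at both promoters and enhancers. TBX5 is a T-box transcription factor needed for heart development and for atrial rhythm. Gene deserts beside developmental genes are known for distant enhancers, which can act over long stretches of DNA on 1 of the genes at the edge of the desert, and not always on the nearest. A nearest gene below is therefore a landmark, not a target.

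Deserts are free of protein-coding genes but not of non-coding ones, and 265 of the 7114 sites lay at the annotated start of a non-coding gene. The start windows of these genes are the stretches of desert site for which sequence was at hand, 300 bases each, from 250 bases before to 50 after the start (RefSeq, GRCm38.p6). There were 3269 such windows in deserts, and 325 of them (9.94%) overlapped a desert site. In 78 windows the summits of both control peaks fell inside. From these the strongest sites were taken, 3 called in all 4 lists and then 3 called in neither TBX5 KO list, in order of control strength and 1 window per site. Each is printed 5′ to 3′ in the direction of the gene, with capitals on the short words searched for.
Gm34507: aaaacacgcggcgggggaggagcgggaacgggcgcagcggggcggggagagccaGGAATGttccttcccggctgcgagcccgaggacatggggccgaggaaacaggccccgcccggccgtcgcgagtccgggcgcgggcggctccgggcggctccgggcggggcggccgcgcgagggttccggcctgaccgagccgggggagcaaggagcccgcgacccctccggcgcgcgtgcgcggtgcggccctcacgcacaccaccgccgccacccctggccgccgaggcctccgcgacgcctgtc
Gm32287: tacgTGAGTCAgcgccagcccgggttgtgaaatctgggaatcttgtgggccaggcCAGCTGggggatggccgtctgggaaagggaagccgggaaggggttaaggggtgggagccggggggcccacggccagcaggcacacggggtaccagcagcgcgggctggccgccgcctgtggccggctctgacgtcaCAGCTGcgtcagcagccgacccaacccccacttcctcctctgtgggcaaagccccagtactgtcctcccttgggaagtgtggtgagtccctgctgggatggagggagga
Gm34948: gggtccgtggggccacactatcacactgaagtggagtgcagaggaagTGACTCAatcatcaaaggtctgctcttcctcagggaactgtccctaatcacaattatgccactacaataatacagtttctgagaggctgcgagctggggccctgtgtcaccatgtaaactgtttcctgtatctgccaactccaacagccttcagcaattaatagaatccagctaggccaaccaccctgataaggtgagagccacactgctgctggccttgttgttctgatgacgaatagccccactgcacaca
Gm28231: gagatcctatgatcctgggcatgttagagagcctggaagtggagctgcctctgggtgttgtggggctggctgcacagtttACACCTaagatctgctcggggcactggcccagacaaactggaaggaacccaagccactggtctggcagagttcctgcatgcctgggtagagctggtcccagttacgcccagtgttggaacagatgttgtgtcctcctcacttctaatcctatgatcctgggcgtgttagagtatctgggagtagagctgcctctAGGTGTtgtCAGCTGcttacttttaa
Gm41414: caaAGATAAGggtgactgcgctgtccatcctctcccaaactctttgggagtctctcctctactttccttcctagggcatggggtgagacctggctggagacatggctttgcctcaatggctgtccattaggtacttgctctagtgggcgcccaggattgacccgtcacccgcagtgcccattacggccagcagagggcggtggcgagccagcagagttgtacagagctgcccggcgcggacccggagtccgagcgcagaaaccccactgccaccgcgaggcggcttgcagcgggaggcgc
Gm36139: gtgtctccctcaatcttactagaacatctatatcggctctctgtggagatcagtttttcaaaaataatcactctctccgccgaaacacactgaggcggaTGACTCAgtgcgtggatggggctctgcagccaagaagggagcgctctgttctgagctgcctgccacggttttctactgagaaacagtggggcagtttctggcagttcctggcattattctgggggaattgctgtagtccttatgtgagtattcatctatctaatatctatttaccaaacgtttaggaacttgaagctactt

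The Gm34507 window lies at chr17:4908072-4908371 on the plus strand, 85.0 kb from Arid1b, with 79.3% G and C. Summit pileup, the number of overlapping fragments at the highest point of a peak, was 20.6 and 15.6 times the genome background of the library in control 1 and 2, and 7.86 and 8.28 times in TBX5 KO 1 and 2. The Gm32287 window, at chr2:167777365-167777664 on the minus strand and 83.8 kb from Cebpb, is 67.3% G and C. Its site had 18.8 and 18.2 times background in control, then 14.3 and 13.9 times in TBX5 KO, so it kept more of its control value than the Gm34507 site. The Gm34948 window, at chr2:103896217-103896516 on the minus strand and 60.5 kb from Lmo2, is 50.3% G and C, with 13.7 and 12.1 times background in control, then 5.71 and 5.89 times in TBX5 KO. The control-only windows were weaker to begin with. Gm28231, at chr9:88259637-88259936 on the plus strand and 67.2 kb from Nt5e, had 4.65 and 4.28 times background in control. Gm41414, at chr16:5306588-5306887 on the plus strand and 50.7 kb from Eef2kmt, had 4.06 and 3.80 times. Gm36139, at chr1:151087892-151088191 on the minus strand and 93.6 kb from Hmcn1, had 4.35 and 3.80 times. No peak was called at these 3 in either TBX5 KO list. All 6 genes are annotated as lncRNA genes.

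The words were searched on both strands. For T-box factors the word was AGGTGTGA or the AGGTGT within it, and for GATA factors it was AGATAAG or the AGATAA within it. TEAD factors had CATTCC, AP-1 had TGACTCA and the E-box was CAGCTG. NKX2 factors had CACTTGA, with CACTTAA as its other form. The longer MEF2 and CTCF words are given by name alone. In the control-only Gm28231 window the capitals mark AGGTGT on each strand and 1 CAGCTG, and in Gm41414 they mark AGATAAG. The AP-1 word or its complement stands in Gm36139, which was control-only, and in Gm32287 and Gm34948, which were called in all 4 lists. Gm32287 also holds CAGCTG at 2 places, and Gm34507 holds CATTCC on the minus strand.

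Over all 325 windows at desert sites, AGGTGT was present in 11.7%, against 15.1% of the 2944 desert windows without a site and 13.8% of all 31396 autosomal windows of the same length. The longer AGGTGTGA was in 1.54%, 1.05% and 1.29% in the same order. TGACTCA was in 10.2%, 6.45% and 5.26%, and CAGCTG was in 22.5%, 16.2% and 16.3%. AGATAA was in 17.2%, 18.2% and 11.2%, with similar shares in desert windows with and without a site. The remaining classes were, in the same order, AGATAAG 2.77%, 5.40% and 3.03%, MEF2 3.08%, 4.52% and 2.79%, CATTCC 16.9%, 17.4% and 14.6%, NKX2 7.69%, 6.11% and 5.34%, and CTCF 0.308%, 0.0% and 0.0446%. Among the 45 windows at control-only sites AGGTGT was in 11.1%, and among the 231 windows at sites called in all 4 lists it was in 11.7%. CAGCTG was in 31.1% of the control-only windows and 20.3% of those called in all 4. In the same order AGGTGTGA was in 0% and 2.16%, AGATAA in 11.1% and 18.6%, and AGATAAG in 6.67% and 2.16%. MEF2 words were in 6.67% and 2.60%, CATTCC in 17.8% and 16.9%, and NKX2 words in 8.89% and 6.49%. TGACTCA was in 13.3% and 9.96%, and the CTCF word in 0% and 0.433%. These shares describe letters in windows, 45 of them in the control-only class, and say nothing of what binds there. Median G and C content was 48.7% at desert sites, 45.3% in desert windows without one and 53.0% over all windows, and was not matched.

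Desert peaks, like peaks as a whole, were fewer in the libraries titled TBX5 KO. Control 1 and control 2 held 9666 and 9058 autosomal desert peaks under 5000 bp, and TBX5 KO 1 and TBX5 KO 2 held 5513 and 6388. The means were 9362 ± 430 and 5951 ± 619 (SD, n = 2), a ratio of 1.57, and the groups did not overlap. The same ratio over all peaks of the lists was 1.46 (95722 ± 5943 against 65365 ± 5928, SD, n = 2). Desert peaks were 9.78% and 10.005% of the autosomal peaks in control, and 9.08% and 9.25% in TBX5 KO. The mean share was 9.89% ± 0.161 against 9.17% ± 0.123 (SD, n = 2), a difference of 0.725 percentage points, and again the groups did not overlap. A two-sided exact permutation test over libraries gave p = 0.333 for both measures, the smallest p that 2 against 2 allows. With each list reduced to the length of the shortest, the difference in number was 836.5 peaks in place of 3411.5, and the difference in share was 1.43 points.

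Median width of the desert peaks was 569 and 576 bp in control, then 480 and 504 bp in TBX5 KO, below the median of all peaks in each list (617, 628, 546 and 569 bp). The authors' fold over local background had a median of 3.16 and 3.10 at desert peaks in control, above the 3.06 and 3.02 of all peaks there. In TBX5 KO it was 2.74 and 2.62 at desert peaks, below the 2.82 and 2.69 of all peaks. Relative to the median of its own list, the median desert fold was thus higher in both control libraries and lower in both TBX5 KO libraries.

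Of the 7114 desert sites, 2123 (29.8%, 95% Wilson interval 28.8% to 30.9%) were called in neither TBX5 KO list. Such sites are called control-only below. Over all 65930 autosomal sites the same pattern held 25.3%. Both TBX5 KO lists called 3430 desert sites (48.2%), against 55% of all autosomal sites, while TBX5 KO 1 alone called 530 and TBX5 KO 2 alone 1031. Intervals here cover counting error only, and neighbouring sites are not independent. In the same-numbered pairs taken on their own, 54.5% of the desert sites of control 1 had no call in TBX5 KO 1 and 45.7% of those of control 2 had none in TBX5 KO 2.

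Seen from the other side, 3803 autosomal desert sites were called in both TBX5 KO lists, and 108 of them (2.84%, 2.36% to 3.42%) in neither control list, where 1.93% of all autosomal sites called in both TBX5 KO lists had that pattern. The strongest 3 lay near Nbas, a gene of Golgi-to-ER transport, Bod1, a gene of chromosome biorientation in mitosis, and Klhl29. Near Nbas, at chr12:13698827-13699509, summit pileup was 4.12 and 3.80 times background in TBX5 KO 1 and 2. Near Bod1 it was 3.93 and 3.58 times, and near Klhl29 it was 3.55 and 3.21 times. None of these reached the level of the strongest control-only sites given below.

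How often a site was control-only went with the strength of its control peaks. Control rank was the mean percentile of −log10 p in both control lists, and all 65930 sites were split into 10 deciles of it. In the lowest decile 60.2% of the desert sites were control-only, in the fifth 33.4%, and in the highest 10 of 312 (3.21%, 1.75% to 5.80%). In the highest decile the share was 1.89% at other sites outside genes, 1.29% inside genes, and 1 of 4408 sites within 1 kb of a gene end. From the third decile up, the desert share was higher than the share of each of the other places. If each desert site had the control-only share of its decile over all sites, 1826 of them (25.7%) would have been control-only, and the observed number was 1.16 times that. The same ratio was 1.04 inside genes, 0.948 at other sites outside genes and 0.634 at gene ends. The excess of 4.17 percentage points was 1.96 points without control replicate 2. In the same-numbered pairs on their own it was 2.16 points in pair 1 and 3.99 points in pair 2.

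**Figure D1:**
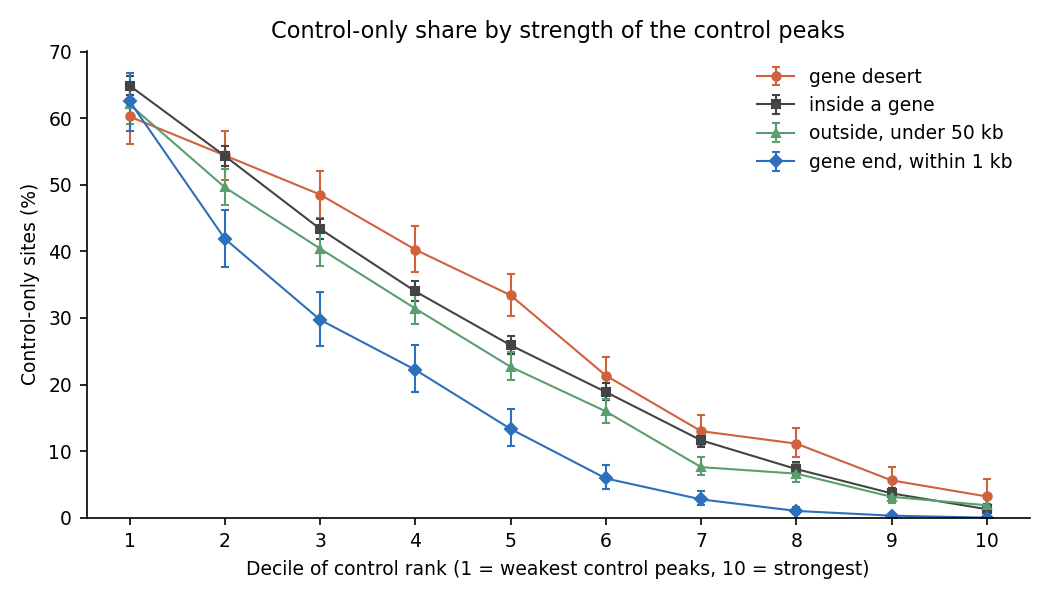
Share of control-only sites (y axis, %) in each decile of control rank (x axis, 1 weakest, 10 strongest) for desert sites and 3 other places; points are shares of sites and bars 95% Wilson intervals. Desert sites go from 60.2% in the lowest to 3.21% in the highest decile and lie above the other places from the third decile on.

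Against sites inside genes the plain share gave no stable order. Control-only sites were 31.3% inside genes, 1.44 points more than in deserts, 24.6% outside genes within 50 kb, and 7.52% at gene ends. With lists of equal length the desert share was the higher one by 2.51 points, at −log10 q of at least 5 by 1.14 points, and with a distance of 100 kb by 0.506 points.

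Within the deserts the control-only share was higher at greater distance from genes. At 50 to 100 kb 781 of 2892 sites (27.0%, 25.4% to 28.7%) were control-only, and at 100 to 250 kb 830 of 2831 (29.3%, 27.7% to 31.0%). The share was 35.6% (32.8% to 38.5%) of the 1067 sites at 250 to 500 kb. Beyond 500 kb 132 of 324 sites (40.7%, 35.5% to 46.2%) were control-only. Median control rank hardly differed between these classes (60.6, 59.9, 57.1 and 58.2), and the number expected from rank was exceeded 1.07, 1.15, 1.31 and 1.61 times. The share of sites called in all 4 lists went the other way, from 51.2% to 48.1%, 43.4% and 38.3%. Between the nearest and the farthest class the control-only share differed by 13.7 points, and by 10.4 to 16.3 points with each library left out in turn. With groups exchanged as the genotype labels have them, this difference was −1.81 points.

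**Figure D2:**
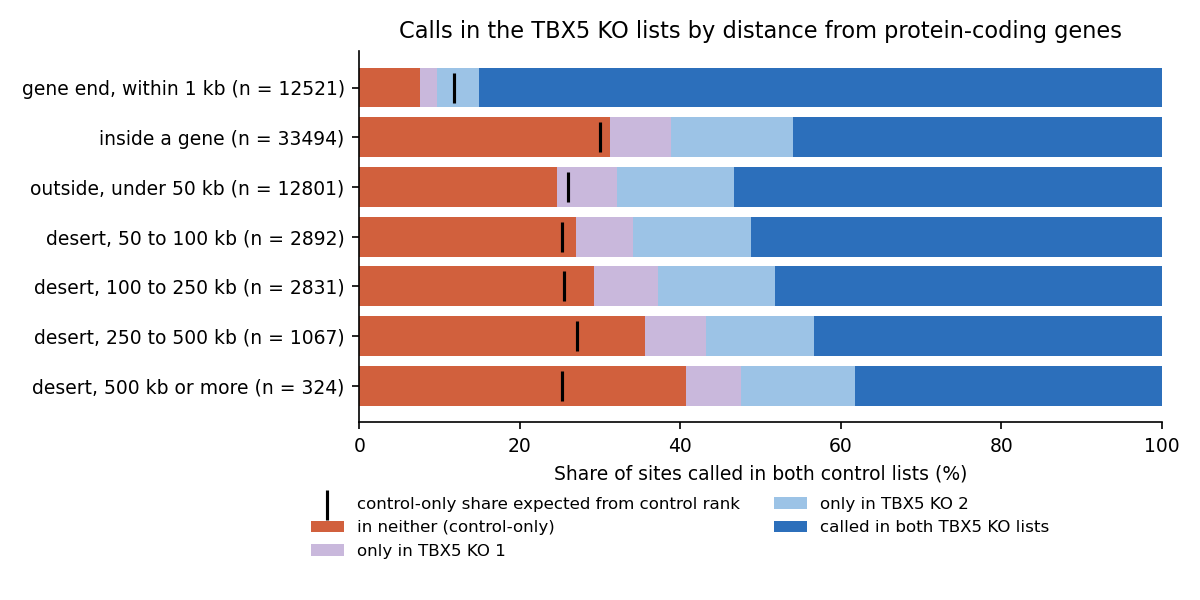
Share of sites (x axis, %) by call in the TBX5 KO lists, for sites at gene ends, inside genes, outside genes within 50 kb and in 4 distance classes of desert; black ticks mark the control-only share expected from control rank. The control-only segment grows from 27.0% at 50 to 100 kb to 40.7% at 500 kb or more, while the tick stays between 25.3% and 27.2%.

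The shares on both sides of the 50 kb threshold lay close together. Sites 45 to 50 kb away were control-only in 27.9% of 473 cases, and sites 50 to 55 kb away in 27.0% of 430. The nearest desert site lay 50010 bp from Necab1 and the first site outside the rule 49999 bp from Pias1. The limit on length left out 45 desert sites, all called in all 4 lists, the shortest with a control peak of 5068 bp near Ptpn1, while the longest kept had one of 4959 bp near Kcnrg. Desert sites were sparse, with 8.24 per Mb of desert against 23.4 per Mb of other sequence between genes and 45.9 per Mb of gene body, and their density was 15.8 per Mb at 50 to 100 kb and 1.503 beyond 500 kb. Across the autosomes the control-only share ran from 20.8% on chromosome 17 to 36.5% on chromosome 1.

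Where desert sites were called in all 4 lists, their pileup was also lower in TBX5 KO. Pileup was recovered from fold and −log10 p and divided by the genome background of its library, and 3427 of the 3430 sites gave a value in each list. The median ratio of TBX5 KO over control was 0.639 and 0.634 against control 1, and 0.667 and 0.660 against control 2, for TBX5 KO 1 and 2. On the means of both groups it was 0.648 in deserts, 0.651 over all autosomal sites called in all 4, 0.671 inside genes and 0.618 at gene ends. At the 294 desert sites of the highest rank decile with values the ratio was 0.475. In that decile it was 0.514 inside genes, 0.514 at other sites outside genes, 0.558 at gene ends and 0.545 over all sites. All these sites were chosen by their control peaks, so the ratios are given without a test.

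The sites named here by strength are limited to 1 per nearest gene within each call pattern. The strongest control-only site lay in the desert between Gja1, which encodes the gap junction protein connexin 43, and Hsf2, which encodes a heat shock transcription factor. At chr10:57112654-57116233, 722 kb from Gja1 and 368 kb from Hsf2, summit pileup was 13.2 and 14.7 times background in control 1 and 2, and its control rank was 97.7. The site near Epha4, an ephrin receptor gene, at chr1:77047759-77050202, had 11.8 and 15.3 times background. A further control-only site near Epha4, at chr1:77060612-77063283, ranked above the last 5 of the 8 with 9.30 and 10.4 times and was left out by that limit. Near Sqor, which encodes a mitochondrial sulfide-oxidising enzyme, at chr2:123266640-123267610, it was 11.6 and 9.44 times. Near Tet2, a methylcytosine dioxygenase gene, control values were 9.20 and 13.3, near Cdyl, a chromodomain gene, 10.1 and 9.35, and near Gipc2, 11.6 and 8.96. The site near Eea1, which encodes an early endosome tether, had 9.001 and 10.6 times background, and the site near Fgf20, a fibroblast growth factor gene, 9.10 and 9.83. None of these 8 sites had a call in a TBX5 KO list. The lists give no pileup where no peak was called. The lowest pileup of any called peak was 2.06 and 1.94 times background in TBX5 KO 1 and 2.

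A second site in the Gja1 to Hsf2 desert, at chr10:56980115-56982393, was the strongest of those called in TBX5 KO 2 alone, with 12.6 and 13.7 times background in control and 2.98 in TBX5 KO 2. The next were near Ttc29 (10.6 and 11.2 in control, 2.31 in TBX5 KO 2) and near Itga6, which encodes integrin alpha 6 (10.7 and 9.25, then 2.46). Of those called in TBX5 KO 1 alone, the strongest lay near Rspo2, a gene of Wnt signal enhancement, with 11.2 and 9.74 times background in control and 2.53 in TBX5 KO 1. Near Cd180 the values were 9.59 and 10.7 in control and 2.34 in TBX5 KO 1, and near Sema3a, a guidance cue gene, 10.5 and 8.18, then 2.25. At these 6 sites the TBX5 KO value was 2.25 to 2.98, each below both control values of its site. The choice by high control rank and by a call in only 1 TBX5 KO list favours this order, so it is a description.

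Of the 8 strong desert sites named that were called in all 4 lists, 6 had lower summits in the TBX5 KO libraries. Near Zfp608, a zinc finger gene, summit pileup was 25.02 and 24.8 times background in control, then 9.64 and 7.83 in TBX5 KO. At chr16:30007120-30010629, near Hes1, a target gene of Notch signalling, it was 23.9 and 20.9 in control, then 9.26 and 11.5 in TBX5 KO. Near Rbpms, an RNA-binding protein gene of muscle, it was 22.5 and 20.8, then 8.33 and 9.55, and near Klf4, a zinc finger factor gene, 22.6 and 21.0, then 11.6 and 9.92. The site near Lbh, a transcriptional cofactor gene, had 18.9 and 19.5 in control, then 5.71 and 6.34 in TBX5 KO, and that near Tle3, a Groucho corepressor gene, had 21.9 and 19.8, then 9.07 and 9.10. At each of these 6 sites both TBX5 KO values lay below both control values. The sites were picked by control rank, which by itself favours this order, so it was not tested. Over all autosomal sites called in all 4 lists the median ratio of TBX5 KO over control was 0.651. The remaining 2 of the 8 named, again 1 per nearest gene, were a site at Rn18s-rs5, a ribosomal RNA pseudogene near Esp38, and chr2:98666758-98667257 near Lrrc4c. A further site at Rn18s-rs5, chr17:39847585-39848811, and a further one near Hes1, chr16:29943398-29948265, also ranked above the last of the 8. For the first Rn18s-rs5 site, chr17:39843096-39846867, and the Lrrc4c site no TBX5 KO pileup was recovered. The authors' fold at that Rn18s-rs5 site was 4.75 and 3.12 in control, then 4.62 and 5.17 in TBX5 KO, so it was not lower throughout. At the Lrrc4c site the local background itself was 304 and 233 times the genome background in control, and the authors' fold was only 1.66 and 1.83 there and 1.73 and 1.62 in TBX5 KO.

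**Figure D3:**
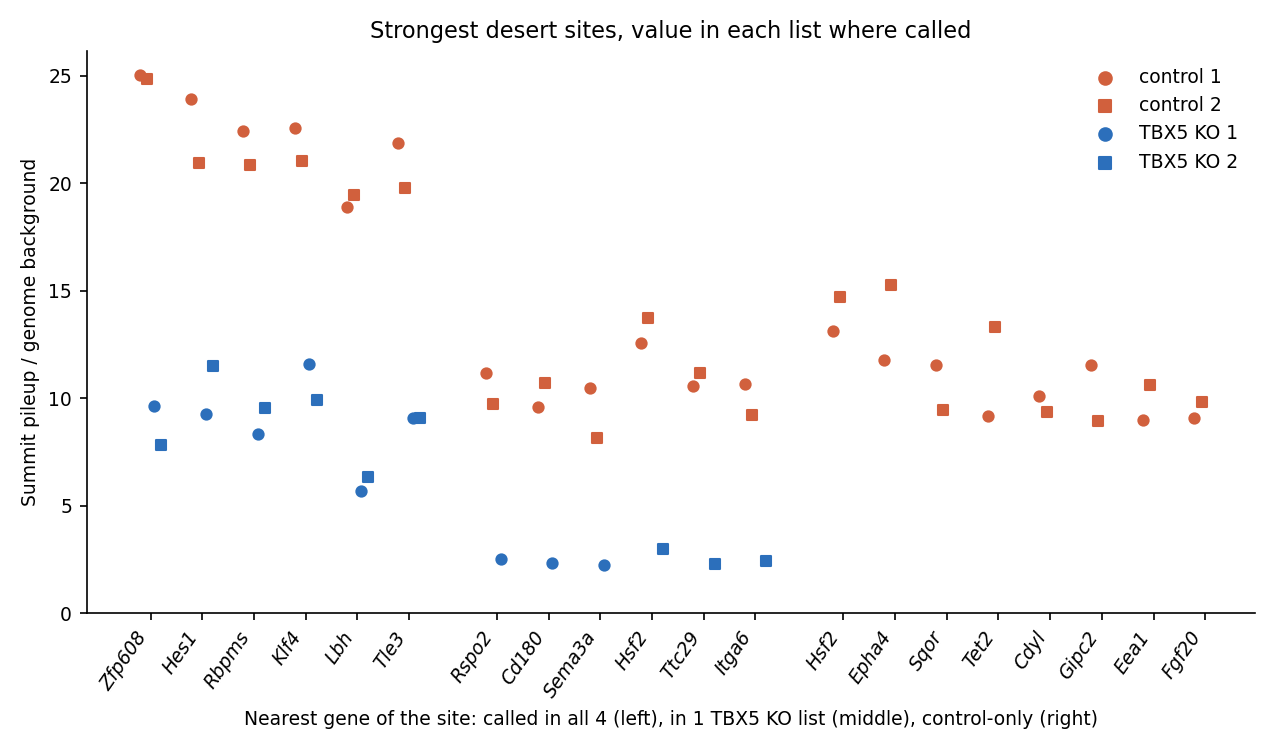
Summit pileup over genome background (y axis) in each list where a peak was called, for the strongest desert sites called in all 4 lists, in 1 TBX5 KO list, and in neither; x axis gives the nearest gene, colours the group and marker shapes the replicate. The 2 sites of extreme local background are left out, and at Zfp608 control values of 25.02 and 24.8 stand above TBX5 KO values of 9.64 and 7.83.

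The site farthest from any protein-coding gene was a weak one 2129 kb from Pcdh17, a protocadherin gene, called in all 4 lists with 2.87 and 3.21 times background in control, then 3.18 and 3.13 in TBX5 KO. The next were near Slitrk5 at 1485 kb, control-only with 3.26 and 2.92, and near Zeb2 at 1464 kb, with 2.57 and 3.02 in control and 2.34 in TBX5 KO 1. Near Gm40892, at 1386 kb, a site called in all 4 had 5.93 and 7.11 in control, then 3.84 and 4.40 in TBX5 KO. Near Tenm4, a teneurin adhesion gene, at 1373 kb, a stronger site (6.92 and 8.08) was control-only.

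Most desert sites lay near another one, and neighbours tended to have the same calls. How many would have a neighbour from their density alone was not worked out. Of the 7114 sites, 6116 (86.0%) had another desert site within 50 kb, at a median gap of 14.7 kb between neighbours. Where the nearest neighbour was control-only, 616 of 1697 sites (36.3%) were too, and where it was called in all 4 lists 705 of 3091 (22.8%). From control rank alone 24.3% and 25.5% would have been expected. The 998 sites with no neighbour were control-only in 42.8% of cases, against 28.8% expected from rank. Chains of sites at most 50 kb apart gave 532 groups of 4 or more, which held 4661 sites (65.5%). Of the 406 groups of 5 or more, 3 were wholly control-only, 72 had no control-only site and 12 were called in all 4 lists throughout.

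The wholly control-only groups were chosen after their values were seen. The one between Gja1 and Hsf2, chr10:57112654-57231750, held 6 sites against 1.47 control-only sites expected from rank. Its control values ran from 3.07 and 2.73 times background at the weakest to 13.2 and 14.7 at the strongest. The others held 5 sites each, near Vgll2, which encodes a TEAD cofactor of muscle (1.47 expected), and near Sqor (1.62 expected).

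Of the groups with the most members, the one between Nudt4 and Eea1 stood out by its control-only sites, 27 of 45 where 13.05 would be expected from rank. Its strongest site, at chr10:95772534-95775735, was nevertheless called in all 4 lists, with 16.5 and 16.7 times background in control, then 6.27 and 5.97 in TBX5 KO. Between Haao and Zfp36l2, which encodes an RNA-destabilising zinc finger protein, only 3 of 42 sites were control-only, with 9.06 expected, and 32 were called in all 4 lists. Its strongest site, at chr17:83982003-83984556, had 15.9 and 16.4 times background in control, then 8.42 and 7.16 in TBX5 KO. The other large groups were nearer to expectation, with 13 of 48 control-only between Serp2 and Lacc1 (9.97 expected), 14 of 47 between Cd83 and Jarid2 (11.8) and 10 of 39 between Klf14 and Mkln1 (14.3).

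**Figure D4:**
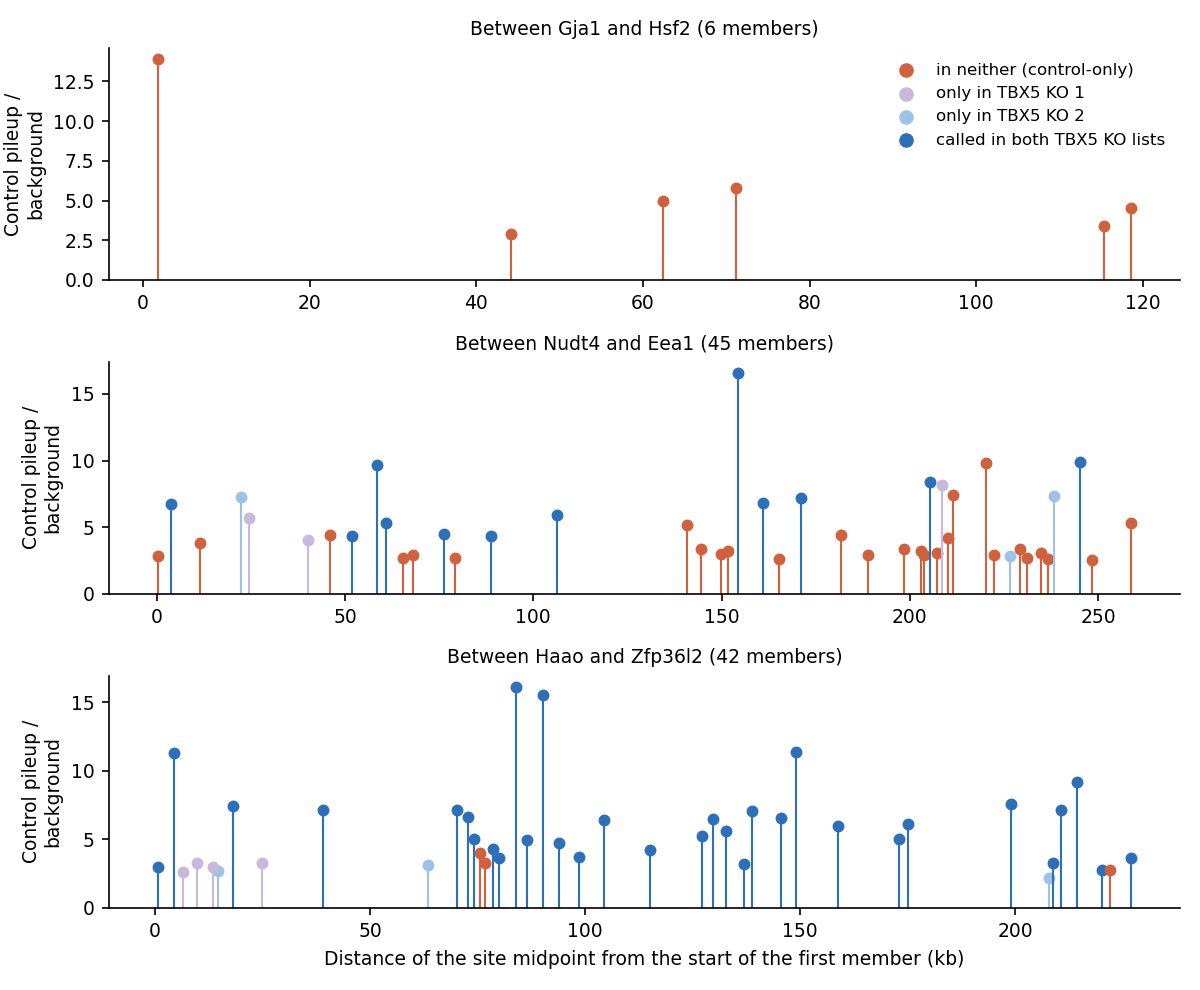
Mean control summit pileup over genome background (y axis) of each desert site against the distance of its midpoint from the start of the first site of its group (x axis, kb), coloured by its calls in the TBX5 KO lists. All 6 sites of the Gja1 to Hsf2 group were control-only, against 27 of 45 between Nudt4 and Eea1 and 3 of 42 between Haao and Zfp36l2.

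By nearest gene, the 7114 sites fell to 1658 protein-coding genes, of which 485 had 5 or more. Among these 485, 75 had no control-only site and 58 had a majority of them. Eea1 had the most sites, 45 with 27 control-only (14.2 expected), which are largely those of the group just described. Tbl1xr1, which encodes a corepressor subunit, had 13 of 44 control-only, and Usp25, a deubiquitinase gene, 14 of 42. The counts were 13 of 38 at Cd83, an immune surface protein gene, 7 of 37 at Zfp608, and 10 of 36 at Zmiz1, a transcriptional coregulator gene. At Nfib, which encodes a nuclear factor I protein, 6 of 34 were control-only, at Jarid2, a cofactor gene of Polycomb complex PRC2, 9 of 33, at Serp2 9 of 32, and at Plpp3, a lipid phosphatase gene, 8 of 31.

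The genes of highest control-only share were Slit2, a guidance ligand gene (5 of 5), Vgll2 (5 of 5), Hsf2 (9 of 10), Magi3, a junctional scaffold gene (7 of 8), and Tshz1, a zinc finger factor gene (5 of 6). At Slit2 the 5 sites lay 111 to 740 kb away, and their control values ran from 3.36 to 4.85 times background in control 1. The lowest shares, with no control-only site, were at 1500009L16Rik (19 sites), Slc45a1 (12), Phactr1, a gene of actin regulation (11), Xxylt1 (11) and Moxd1 (10). The expected numbers there were 2.69, 3.43, 3.10, 1.85 and 2.88. At Phactr1 all 11 sites were called in all 4 lists, at moderate height. At its strongest by control rank, chr13:42525545-42527779, pileup was 6.63 and 6.72 times background in control, then 6.08 and 6.19 in TBX5 KO, so the groups differed by far less than at the strong sites above. These genes were picked for their shares, which are descriptions.

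Hsf2 was picked for its control-only share, so the counts on the 2 sides of the Gja1 to Hsf2 desert are descriptions, and no difference between them was tested. Of the sites nearest Gja1, 9 of 19 were control-only and 5 were called in all 4 lists, where 5.16 control-only sites would be expected from rank. Of those nearest Hsf2, 9 of 10 were control-only and none was called in all 4, where 2.60 would be expected. The strongest Gja1 site by control rank, chr10:56879623-56880952, 489203 bp away, was called in all 4 lists, with 8.70 and 7.98 times background in control, then 2.90 and 4.03 in TBX5 KO. The strongest control-only site on that side, chr10:56835720-56838470, had 6.73 and 6.04 times in control.

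The lists of genes named below were drawn up with earlier results of these data known, and a site counts for a list by its nearest gene. Among cardiac transcription factors 33 of 93 sites were control-only (35.5%, 26.5% to 45.6%, 25.4 expected from rank), against 29.8% of all desert sites. The members differed widely. At Gata6, a zinc finger factor gene of heart and gut, only 2 of 17 were control-only and 13 were called in all 4 lists, and the rest of the list without it stood at 31 of 76 (40.8%). From rank, 4.18 control-only sites would be expected at Gata6. At Myocd, which encodes the SRF coactivator myocardin, 6 of 12 were control-only (4.04 expected). Tbx20, a cardiac T-box gene, had 2 of 8 (1.16 expected), Hand2 2 of 6 (0.779) and Irx3 1 of 8 (2.76). Nr2f1 had 2 of 3 (1.04 expected) and Tbx3, a gene of the conduction system, 1 of 2 (0.338).

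Tbx5 itself had 2 desert sites, both control-only. At chr5:119964663-119965293, 79.4 kb away, pileup was 4.06 and 3.99 times background in control, and at chr5:119972811-119973622, 87.6 kb away, it was 3.36 and 2.63. Both were of middling or low rank, and 0.674 control-only sites would be expected. Nr2f2, which encodes the atrial identity factor COUP-TFII, had 2 sites and none control-only. With Pam, 1 of 1, and the rest, the atrial identity list came to 3 of 6 sites from 4 genes. With every gene within 500 kb of a site counted, this list had 18 of 48 (37.5%, 23.6% expected from rank).

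Ion channel, calcium handling and conduction genes had 19 of 43 sites control-only (44.2%, 30.4% to 58.9%, 9.50 expected). Gja1 held 19 of these sites, and without it the count was 10 of 24 (41.7%). At Kcnd2, which encodes a channel of the transient outward potassium current, 2 of 3 were control-only (0.222 expected). The strongest of them, chr6:21047861-21048562, had 9.69 and 8.08 times background in control. At Ryr2, the calcium release channel gene, 1 of 5 was control-only (1.03 expected), and all 4 lists called 3 of the 5. Sarcomere and Z-disc genes had few desert sites, 5 of 11 control-only (4.14 expected), among them 2 of 2 at Myom2, 2 of 4 at Ankrd1 and 1 of 3 at Nebl.

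Cell adhesion and synaptic organiser genes, which often border large deserts, had 48 of 106 sites control-only (45.3%, 36.1% to 54.8%), where 25.5 would be expected from rank. Their sites lay far out, at a median of 273 kb against 121 kb for all desert sites, so the list overlaps the distance classes above. Adgrl2, the gene of a latrophilin, had 11 of 25, and the list without it 37 of 81 (45.7%). Cdh11, a cadherin gene, had 4 of 10 and Pcdh18, a protocadherin gene, 4 of 8.

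Other developmental transcription factors had 121 of 361 (33.5%, 101 expected), with 15 of 29 at Zeb2 beside the low counts of Zfp608 and Nfib given above. Secreted growth factors with their receptors and inhibitors had 64 of 195 (32.8%, 52.3 expected). There Cxcl12, a chemokine gene, had 7 of 14, Efnb2 4 of 16 and Tgfb2 3 of 16. With all genes within 500 kb counted in place of the nearest, both lists were closer to all desert sites, at 29.4% and 27.6%.

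The lists of other cell types of the atrium had shares below the 29.8% of all desert sites, but their intervals include that value. Fibroblast and matrix genes had 14 of 58 (24.1%, 14.96% to 36.53%, 16.4 expected). Of these, 3 of 13 were at Dcn, which encodes decorin, 2 of 10 at Fn1 and 3 of 6 at Tcf21. Endothelial and endocardial genes had 13 of 55 (23.6%, 14.37% to 36.35%, 12.3 expected), of which Ets1 gave 7 of 17. Without Ets1 it was 6 of 38 (15.8%), with 2 of 11 at Kdr, a VEGF receptor gene, and 3 of 9 at Npr3. Oxidative and lipid metabolism genes had 5 of 13 by nearest gene (3.69 expected), and 7 of 30 (23.3%) with every gene within 500 kb of a site counted. By nearest gene, 4 of 4 were at Ppargc1a, the coactivator gene of mitochondrial biogenesis, the strongest at chr5:51396173-51397231 with 7.72 and 7.59 times background in control. At Ppara it was 1 of 5, and at Acsl1 0 of 2. Housekeeping genes had 1 of 8, all at Ywhaz, and no desert site had a NuRD subunit gene as its nearest. Within 500 kb of a NuRD subunit gene lay 64 desert sites, and 6 of them were control-only (9.38%, 25.6% expected from rank).

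**Figure D5:**
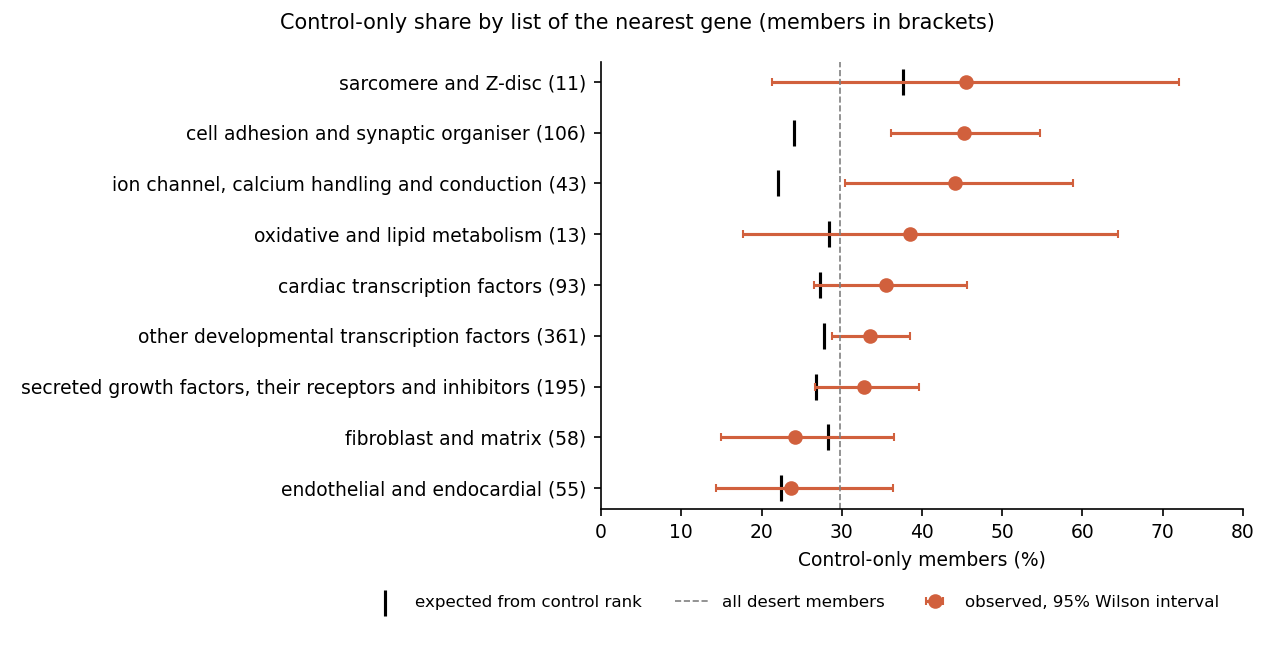
Share of control-only desert sites (x axis, %) by list of the nearest gene, for lists with at least 10 sites (number of sites in brackets); points are observed shares with 95% Wilson intervals, black ticks the share expected from control rank, and the dashed line the 29.8% of all desert sites. Cell adhesion (45.3%) and ion channel (44.2%) lists lie right of their ticks by most.

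Of the 265 sites at the start of a non-coding gene, 181 were called in all 4 lists (68.3%, 65.8% expected from rank). Over all desert sites that share was 48.2%, but the sites at starts were stronger, with a median control rank of 73.0 against 59.7. Of the 265, 41 were control-only (15.5%, 18.2% expected from rank). Sites in a lncRNA gene away from its start were control-only in 482 of 1702 cases (28.3%, 25.5% expected). Those in no gene of any type were control-only in 1565 of 5077 (30.8%, 26.0% expected). In other non-coding genes and pseudogenes 35 of 70 were control-only (22.3 expected). Within 50 kb of an immunoglobulin or T cell receptor segment it was 7 of 10 (2.99 expected). At 58 sites the local background was at least 2 times the genome background in some list. Of these, 46 were called in all 4 lists, near the 42.2 expected from rank. Without these and the receptor segments 7046 sites remained, 30.0% of them control-only.

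Desert sites covered miRNA genes at 5 places, and the mature sequences of those in the RefSeq table, 1 arm each, are given with the seed (bases 2 to 8) in capitals. No seed was shared.
miR-30a-5p: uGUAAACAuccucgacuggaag
miR-3966: aGCUGCCAgcuguagaacugu
miR-99a-5p: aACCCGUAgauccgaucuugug
let-7c-5p: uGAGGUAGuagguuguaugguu
miR-1a-1-5p: aCAUACUUcuuuauaugcccaua

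The site over Mir30a, chr1:23270254-23272470, was called in all 4 lists, with 6.63 and 7.21 times background in control, then 3.55 and 3.80 in TBX5 KO. The site over Mir3966, near Dcn, was also called in all 4, with 4.95 and 6.72 in control, then 3.74 and 3.13 in TBX5 KO. Mir99a and Mirlet7c-1 share 1 site, chr16:77598811-77599929, 482 kb from Usp25, which had 3.56 and 3.41 in control and 3.27 in TBX5 KO 1, with no call in TBX5 KO 2. Mir1a-1, a miRNA gene of heart and skeletal muscle, lies under a weak control-only site, chr2:180388869-180389422, 53.4 kb from Gata5, with 2.87 and 3.12 times background in control. Mir30d, 82.2 kb from Zfat, also lay at a control-only site, with 3.56 and 4.58. All values at miRNA genes are those of the site, not of the miRNA.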

How the data were processed

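CHD4 ChIP-seq peak lists of 4 libraries (2 titled control, 2 titled TBX5 KO) were used, and the 4 input libraries have no list of their own here. Per the submitters' processing notes MACS2 and DiffBind were used on build mm10. How reads were aligned or filtered, and the options of the caller, were not given in the sources used here. Every list belongs to 1 library, so the authors' replicates were not pooled. Each deposited peak has an interval, a summit offset, a score, a fold (ratio) over local background, −log10 p and −log10 q. The deposited fold and −log10 p served to rank peaks within a list and to recover summit pileup and local background under the peak caller's Poisson model, which succeeded for at least 99.96% of peaks in each list, up to −log10 p of 290 and to a tolerance of 0.0001. The deposited score was not used. The genome background was the most frequent local background of a list (10.1, 10.3, 10.7 and 13.4 reads of pileup), and the lists give no read totals, so the depth is unknown.

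Gene positions, start windows and miRNA sequences came from RefSeq tables of GRCm38.p6 with 21887 protein-coding genes. Sites within 1 kb of a gene end, inside genes and outside genes were compared with desert sites. The nearest gene was the protein-coding gene with the nearest end, so no strand or promoter enters. The members, the gene lists and the rules were chosen with earlier results of these data known. Named were the strongest sites of each call pattern and the farthest sites, at most 1 per nearest gene, the genes and groups with the most sites or the most extreme shares, up to 3 genes of each list, and fixed cardiac genes. Shares have 95% Wilson intervals. Libraries were compared with two-sided exact permutation tests, and nothing was tested over sites. The planned search for words at the summits needed a genome and was done in the start windows instead. Python 3.11.15, pandas 2.3.3, numpy 2.4.6 and scipy 1.17.1 were used, and site merging and pileup recovery were tested on simulated data.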

Additional observations from a re-analysis of the deposited data

How the results depend on the processing

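The control-only share of desert sites, 29.8%, depended on the length of the lists. It was 33.9% and 39.3% at −log10 q of at least 3 and 5, 22.1% in lists of equal length, 33.1% with summits within 250 bp, 28.4%, 31.8% and 34.5% with a distance of 25 kb, of 100 kb and from genes of all types, and 31.8% with a length limit of 2000 bp. It was 37.3% to 44.3% with 1 library left out. Without a TBX5 KO library, sites called in that list alone count as control-only, so the share can only rise. Without control replicate 1 or 2 more sites met the rule, 8680 and 9365. The excess over the share expected from rank, 4.17 points, kept its sign in all settings run. It was 5.33 and 5.72 at the stricter q, 3.09 by summits, 3.02, 5.83 and 7.88 with the other distances, and 1.96 to 4.69 with 1 library left out. Fewer peaks, sites or libraries enter under most of these settings, and the cause of the other differences was not tested further.

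The difference from sites inside genes, −1.44 points, was positive at −log10 q of at least 3 (0.518) and 5 (1.14), in lists of equal length (2.51), at 100 kb (0.506) and with all gene types (3.13). It was −2.89 by summits, −2.88 at 25 kb, −3.02 at 2000 bp and −6.80 to −1.52 with 1 library left out. The number of desert sites was 4222 at 100 kb and 1379 with all gene types. The pileup ratio, 0.648, was 0.631 at −log10 q of at least 5, 0.628 in lists of equal length, 0.666 at 2000 bp and 0.646 to 0.671 with 1 library left out. The difference of 13.7 points between the farthest and nearest sites stayed positive in every setting run except exchanged groups. It has no value for a distance of 100 kb or for all gene types.

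With the groups exchanged, desert peaks differed by −3411.5 in number and −0.725 points in share, 3793 desert sites were found, 2.85% of them called only in that group, 0.531 points above the share expected from rank and 0.358 above that inside genes, the distance difference was −1.81 points and the pileup ratio 1.55. The labels give no link between same-numbered libraries. With the replicate number as a block, the exact permutation p for number and share was 0.5, the smallest p that 2 pairs allow. In pair 1 and pair 2 on their own the control-only share was 54.5% and 45.7%, and the excess over rank 2.16 and 3.99 points. The difference from inside genes was −6.76 and −4.93 points, and the pileup ratio 0.664 and 0.684, in the same order. Leaving out sites of high local background or near receptor segments, a setting chosen after seeing the data, gave 7046 sites, 30.0% of them control-only, and a distance difference of 13.9 points.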
